A study of Mus musculus with 12 samples.

Results

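The MHC class II presentation genes were followed across 12 CT-26 tumors. They were 10 genes of the 30630 in the deposited tables, found by giving each mouse Ensembl identifier its GENCODE M21 symbol. H2-Aa, H2-Ab1, H2-Eb1 and H2-Ea-ps encode the chains of the classical class II molecules, Cd74 the invariant chain, H2-DMa, H2-DMb1, H2-DMb2 and H2-Oa the chains of molecules that control peptide exchange, and Ciita the transactivator. The set was chosen with the difference between swimming and control tumors already known, so differences of the 10 genes between the groups are a description, with no p for any single member, and counts of members past a threshold support nothing.

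CT-26 is a mouse colon carcinoma cell line, here injected with Matrigel under the skin of the right flank of male BALB/c mice bought at an age of 4 to 6 weeks, with no genetic change named in the sources used here. RNA was sequenced from 6 control tumors and 6 swimming tumors, picked at random from groups of 10 mice. The swimming mice trained 2 times daily, 6 days weekly, for 3 weeks with sessions that reached 30 min, and the control mice bore the same tumors without training. A tumor was sequenced whole, with the host cells in it, so that fewer cells of a type and less RNA per cell cannot be told apart.

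Class II molecules carry peptides from the endosome to the cell surface, where CD4 T cells read them. An alpha and a beta chain pair in the endoplasmic reticulum (I-A from H2-Aa and H2-Ab1, I-E from H2-Ea and H2-Eb1), and the invariant chain blocks the groove until cathepsins degrade it in the endosome. H2-DM then exchanges the remaining fragment for peptide, and H2-O restrains H2-DM. Dendritic cells, B cells and macrophages are the usual sources, and interferon gamma induces the genes in many other cells through Ciita. Ciita does not bind DNA itself but is held by factors that sit on the X and Y boxes of class II promoters. BALB/c mice have the d haplotype and make both I-A and I-E. The mouse reference genome comes from C57BL/6, whose b haplotype does not transcribe the I-E alpha gene, and so the row of that gene has the name H2-Ea-ps and is annotated as a polymorphic pseudogene.

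Promoter sequences are shown because the X and Y boxes are what the class II genes share as targets of Ciita. RefSeq windows (GRCm38.p6, 250 bases before to 50 after a start site) were matched for 6 members, and H2-Ab1, H2-Ea-ps, Cd74 and Ciita had no window. The letters CNNNNAAC (the core of an X box, N being any base) followed after 20 to 45 bases by GATTGG (the Y box, the reverse complement of CCAATC) were searched on both strands. The search was set after the sequences had been seen, and the letters overlap no other motif searched. This arrangement of the 2 boxes was in 1.35% of all 32851 windows and in 5 of the 7 windows of the members, those of H2-Aa, H2-Eb1, H2-DMb1, H2-DMb2 and H2-Oa. Both windows of H2-DMa lacked it, and those of H2-Eb1 and H2-Oa held 2 such arrangements, of which 1 is marked. GATTGG alone was in 16.1% of all windows and CNNNNAAC alone in 81.6%. Below are the 150 bases before each start site, 5′ to 3′ on the strand of the gene, with the 2 boxes in capitals. They lie at chr17:34287824-34287973 (minus strand) for H2-Aa, chr17:34305717-34305866 (plus) for H2-Eb1, chr17:34153041-34153190 (plus) for H2-DMb1, chr17:34145099-34145248 (plus) for H2-DMb2 and chr17:34092229-34092378 (plus) for H2-Oa.
H2-Aa: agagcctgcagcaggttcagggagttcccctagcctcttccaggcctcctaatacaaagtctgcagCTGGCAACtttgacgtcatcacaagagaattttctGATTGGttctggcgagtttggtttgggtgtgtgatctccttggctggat
H2-Eb1: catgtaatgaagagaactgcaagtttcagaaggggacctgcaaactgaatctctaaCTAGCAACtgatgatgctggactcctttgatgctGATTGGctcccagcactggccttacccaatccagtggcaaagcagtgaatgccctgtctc
H2-DMb1: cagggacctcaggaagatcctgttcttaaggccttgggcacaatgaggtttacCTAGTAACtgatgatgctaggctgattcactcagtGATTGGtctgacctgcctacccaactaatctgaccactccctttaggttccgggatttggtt
H2-DMb2: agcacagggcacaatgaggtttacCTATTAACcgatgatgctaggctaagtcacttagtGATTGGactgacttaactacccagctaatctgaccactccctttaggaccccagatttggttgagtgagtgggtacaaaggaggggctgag
H2-Oa: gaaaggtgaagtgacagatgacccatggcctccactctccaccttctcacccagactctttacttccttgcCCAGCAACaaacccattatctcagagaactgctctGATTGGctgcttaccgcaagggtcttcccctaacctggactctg
The spacing of the boxes was 27 bases in H2-Aa, H2-DMb1, H2-DMb2 and H2-Oa and 26 in H2-Eb1. The Y box began 49 bases before the start site in H2-Aa, 60 in H2-Eb1, 62 in H2-DMb1, 91 in H2-DMb2 and 44 in H2-Oa. Only the window of H2-Aa among the members also held TGACGTCA, the full letters of a cyclic AMP response element, on either strand, as did 1.79% of all windows. These matches are a description of letters and say nothing about binding in the tumors.

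Values are given in FPKM, a read number divided by gene length and sequencing depth, so that levels can be compared between genes. The group difference is given as the difference of mean log2(FPKM + 1), swimming minus control, which understates changes of weakly expressed genes. It was fitted with limma over 19018 genes, those that reached 0.1 FPKM in 6 or more tumors, and 10 of 10 members passed that filter. FPKM does not hold read numbers, and the most frequent ratio among weakly expressed genes put the depth of control 2 at 0.694 of that of control 1, with the other tumors between 0.872 and 0.971. Control 1 stood apart in adipocyte genes (summed level 177 FPKM, against at most 44.1 in any other tumor) and, in B cell genes, given with H2-Oa. Of the 9 colon epithelial markers with a row, Epcam, Cdx2, Vil1 and Cldn4 averaged below 0.1 FPKM, while Krt20 averaged 140 FPKM.

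Over the 10 members, the difference was above 0 in each and its median was 0.96 on the log2 scale, while the median over all genes tested was 0.00387. In limma's test 9 members had an unadjusted p below 0.05, as had 5.56% of all genes in either direction and 3.11% in the direction of higher values in swimming tumors. After Benjamini-Hochberg adjustment 0 members and 0 genes (0%) had a p below 0.05 in limma's test, with 1058 genes at an unadjusted p below 0.05. A fold change above 2 with an unadjusted p below 0.05 was reached by 5 members, and by 0.0684% of all genes in that direction. Since the members were picked from this contrast, nothing is read from these counts. Without swimming 5 the members at an unadjusted p below 0.05 were 6, without swimming 6 they were 7, and without control 1 they were 10. In none of the 10 genes were the groups apart without overlap, which 0.147% of all genes were.

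**Figure D1:**
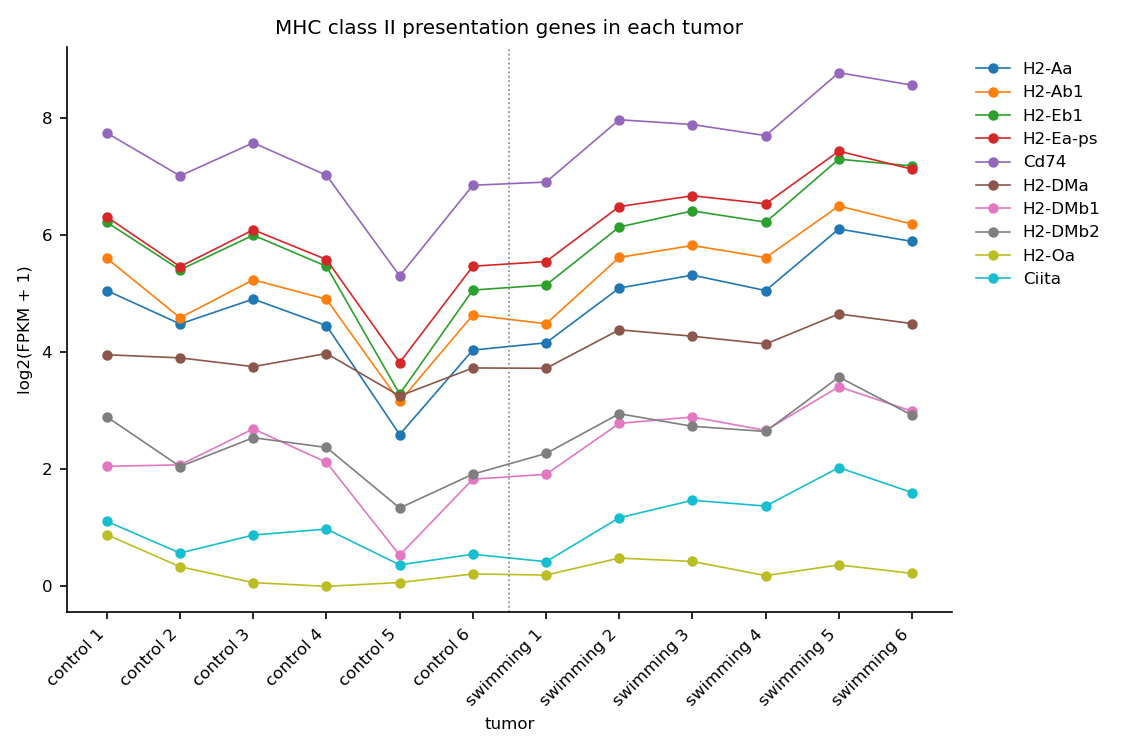
Level of each of the 10 genes as log2(FPKM + 1) (y axis) in the 6 control and 6 swimming tumors (x axis), 1 colour and line per gene. The lines run side by side from tumor to tumor, with control 5 lowest and swimming 5 highest for most genes, and H2-Oa is at or below 0.844 FPKM throughout.

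H2-Aa, the I-A alpha chain (ENSMUSG00000036594, chromosome 17, 34282744 to 34287823 in GRCm38, minus strand), ranged in control tumors from 5.03 to 32.2 FPKM with a median of 21.1, and in swimming tumors from 16.9 to 67.9 with a median of 36.1. Control 5 was lowest of all and swimming 5 and swimming 6 (58.5 FPKM) were highest, while swimming 1 lay inside the range of the controls. The group means were 20.7 ± 9.75 FPKM (SD, n = 6) and 41.3 ± 18.7 FPKM (SD, n = 6), a difference of 1.02 on the log2 scale (standard error 0.41). H2-Ab1, its beta chain (ENSMUSG00000073421, chromosome 17, 34257689 to 34269419), ranged from 7.93 to 47.6 FPKM in control tumors (median 26.4) and from 21.4 to 89.5 FPKM in swimming tumors (median 51.9). Again 5 of 6 swimming tumors were above every control and swimming 1 was below the control median. The difference was 1.02 on the log2 scale (standard error 0.39).

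The I-E chains were higher in FPKM than the I-A chains in the same tumors. H2-Eb1, the I-E beta chain (ENSMUSG00000060586, chromosome 17, 34305867 to 34316674), ranged from 8.76 to 73.6 FPKM in control tumors (median 42.4) and from 34.5 to 157 FPKM in swimming tumors (median 79.0). Swimming 5 and swimming 6 (144 FPKM) were far above the rest, and swimming 1 and swimming 2 (69.5 FPKM) were inside the range of the controls. The difference of H2-Eb1 was 1.16 on the log2 scale (standard error 0.47), and 0.77 without control 5. H2-Ea-ps, the row that holds the I-E alpha chain (ENSMUSG00000036322, chromosome 17, 34341959 to 34344645, minus strand), was not silent in any tumor. It ranged from 13.2 to 78.5 FPKM in control tumors (median 45.2) and from 45.9 to 172 FPKM in swimming tumors (median 96.5). All 6 swimming tumors were above the control median, which held for 5.38% of all genes, and 5 of 6 were above every control. The means were 48.7 ± 22.6 FPKM (SD, n = 6) and 106 ± 43.8 FPKM (SD, n = 6), a difference of 1.18 on the log2 scale (standard error 0.39). The level of H2-Ea-ps was above that of H2-Aa in 12 of 12 tumors, by 2.02 to 2.85 times with a median of 2.57 times. The class II loci differ in sequence between d and b haplotypes, and how much of the RNA of BALB/c alleles was mapped was not tested.

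Cd74, the invariant chain (ENSMUSG00000024610, chromosome 18), had the highest level of the 10 genes in every tumor. It was between 38.5 and 214 FPKM in control tumors (median 129) and between 119 and 438 FPKM in swimming tumors (median 243). Control 5 was lowest, swimming 1 was below the control median, and swimming 2 (250 FPKM), swimming 3 (236 FPKM), swimming 5 and swimming 6 (377 FPKM) were above every control. The means were 136 ± 61.7 FPKM (SD, n = 6) and 271 ± 117 FPKM (SD, n = 6), a difference of 1.05 on the log2 scale (standard error 0.39).

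**Figure D2:**
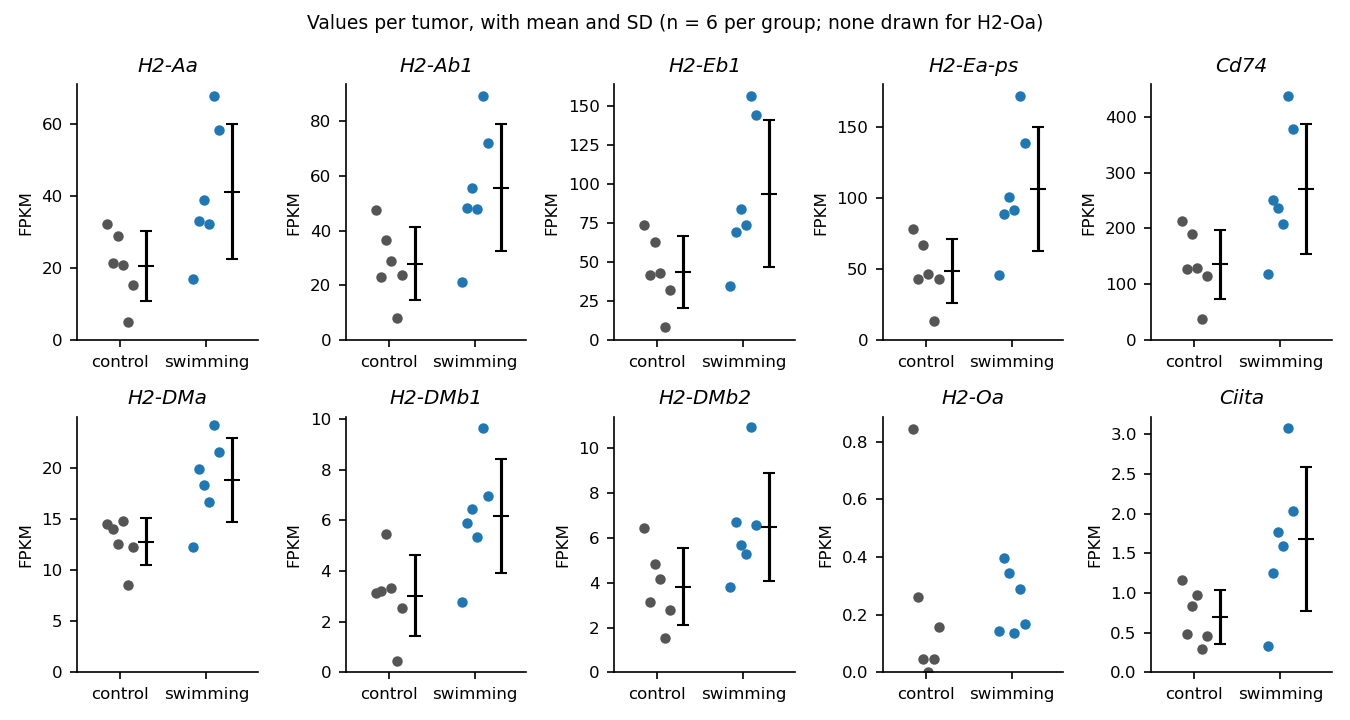
FPKM (y axis, linear from 0) of each gene in the control and swimming groups, 1 point per tumor, with mean and SD beside the points except for H2-Oa, which is listed at 0 in 1 tumor. In every panel the groups overlap, and for every gene the swimming mean is above the control mean (H2-Oa, not drawn, 0.245 against 0.226 FPKM). In all panels but that of H2-Oa the lowest swimming point is swimming 1.

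The genes of peptide exchange were lower in level than the classical chains on average. H2-DMa, the alpha chain of the H2-DM exchange factor (ENSMUSG00000037649, chromosome 17, 34119541 to 34139101), was between 8.53 and 14.8 FPKM in control tumors (median 13.2) and between 12.2 and 24.2 FPKM in swimming tumors (median 19.1), with 5 of 6 swimming tumors above every control. Its difference was 0.51 on the log2 scale (standard error 0.15). Its exons overlap those of Brd2 on the other strand, which was 39.2 ± 2.61 FPKM (SD, n = 6) in control tumors and 41.7 ± 2.56 FPKM (SD, n = 6) in swimming tumors, and the sources used here do not say whether strand was kept. H2-DMb1 (ENSMUSG00000079547, chromosome 17, 34153072 to 34160230) and H2-DMb2 (ENSMUSG00000037548, chromosome 17, 34143307 to 34151555) encode alternative beta chains. H2-DMb1 ranged from 0.445 to 5.46 FPKM in control tumors (median 3.18) and from 2.77 to 9.63 FPKM in swimming tumors (median 6.16). H2-DMb2 ranged from 1.53 to 6.44 FPKM (median 3.66) and from 3.82 to 10.9 FPKM (median 6.12). The lowest value was in control 5 and the highest in swimming 5 for both, and for H2-DMb2 all 6 swimming tumors were above the control median. Their differences were 0.89 (standard error 0.32) and 0.66 (standard error 0.25) on the log2 scale, and 1.19 and 0.81 with a pseudocount of 0.1 in place of 1. Of all stretches of 50 bases in the longest coding transcript, 26.6% of those of H2-DMb1 occur in H2-DMb2 and 25.2% of those of H2-DMb2 in H2-DMb1, so that reads can be divided between both rows by the counting.

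H2-Oa, the alpha chain of the H2-O inhibitor (ENSMUSG00000024334, chromosome 17, 34092340 to 34095234), was the lowest member in level. Its exons overlap those of BC051537 on the other strand. The level of H2-Oa was 0.844, 0.262, 0.0449, 0, 0.0457 and 0.158 FPKM in control 1 to control 6. In swimming 1 to swimming 6 it was 0.143, 0.397, 0.343, 0.135, 0.289 and 0.166 FPKM. Control 1 was above all other tumors, and all 6 swimming tumors were above the control median of 0.102 FPKM. The difference was 0.05 on the log2 scale (standard error 0.13), and 0.18 without control 1. With a pseudocount of 0.1 or 0.01 in place of 1 it was 0.47 or 1.19. H2-Ob, its beta chain, was 0.614 FPKM in control 1 and at most 0.188 FPKM in the other 11 tumors. H2-O is chiefly a B cell product, and the summed level of the B cell markers was also highest in control 1. That sum was 9.61 FPKM in control 1 and between 1.29 and 4.10 FPKM elsewhere. Of the markers, Spib was highest in control 2 (3.05 FPKM), Fcrla in swimming 5 (0.594 FPKM) and the others in control 1. The part of B cells in the H2-Oa values was not tested. Over all 12 tumors 6 of the 10 B cell markers, among them Ms4a1, Pax5, Cr2, Blk and Fcer2a, averaged below 0.1 FPKM.

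Ciita (ENSMUSG00000022504, chromosome 16, 10480059 to 10528418) was between 0.290 and 1.16 FPKM in control tumors (median 0.660) and between 0.339 and 3.08 FPKM in swimming tumors (median 1.68). All swimming tumors except swimming 1 were above every control. The difference was 0.60 on the log2 scale (standard error 0.22), and with a pseudocount of 0.1 in place of 1 it was 1.05. GENCODE lists 8 transcripts of Ciita with several start sites, which are used in dendritic cells, in lymphocytes and in cells stimulated by interferon gamma, and the gene value adds them up. The exons of Ciita overlap those of Dexi on the other strand, which was 3.15 ± 0.538 FPKM in control tumors and 3.30 ± 0.306 FPKM in swimming tumors (SD, n = 6 each).

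The order of mean level was Cd74, H2-Ea-ps, H2-Eb1, H2-Ab1, H2-Aa, H2-DMa, H2-DMb2, H2-DMb1, Ciita and H2-Oa. This order was close to fixed within a tumor. Cd74 was above H2-Ea-ps, H2-Eb1 above H2-Ab1, H2-Ab1 above H2-Aa, H2-DMa above H2-DMb2, H2-DMb1 above Ciita, and Ciita above H2-Oa in 12 of 12 tumors each. H2-Ea-ps was above H2-Eb1 in 11 of 12, with a median ratio of 1.15, and H2-Aa above H2-DMa in 11 of 12. H2-DMb2 and H2-DMb1 could not be ordered, since H2-DMb2 was higher in 7 of 12 tumors.

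**Figure D3:**
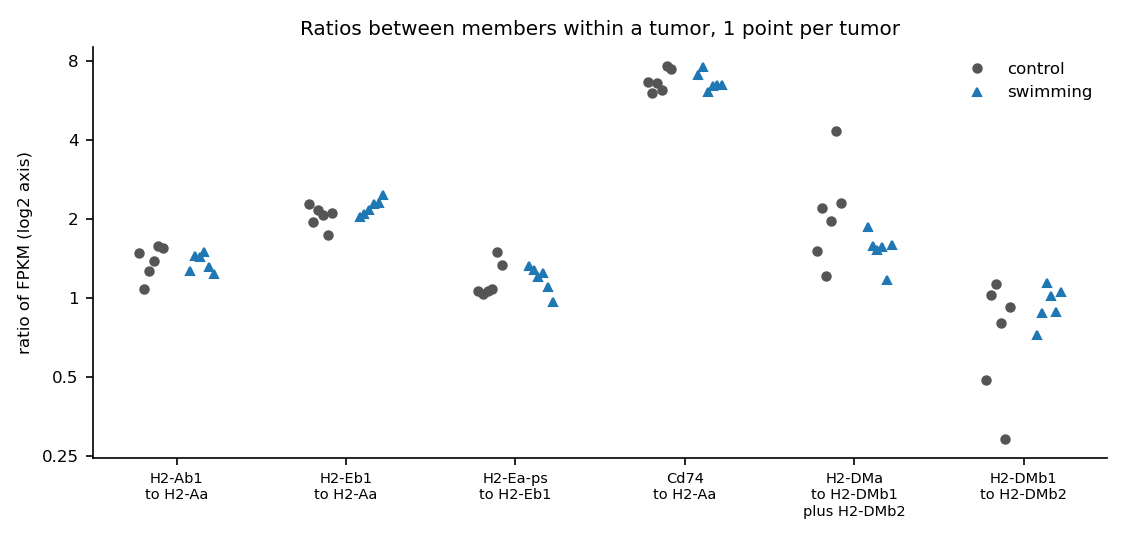
Ratio of FPKM between members in the same tumor (y axis, log2 scale), with control tumors as circles and swimming tumors as triangles. The ratios of the classical chains and Cd74 to each other overlap between the groups, and of the 6 ratios drawn those that involve H2-DMb1 and H2-DMb2 are widest, with control 5 at 4.32 and 0.291 (H2-Oa, listed at 0 in 1 tumor, is not drawn).

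Ratios within a tumor were taken between the members. H2-Ab1 to H2-Aa was 1.39 ± 0.189 (SD, n = 6) in control tumors and 1.37 ± 0.107 (SD, n = 6) in swimming tumors. Cd74 to H2-Aa was 6.74 ± 0.668 and 6.66 ± 0.528, and H2-Ea-ps to H2-Eb1 was 1.18 ± 0.192 and 1.19 ± 0.134. In these 3 ratios the means were closer to each other than 1 SD of either group. H2-Eb1 to H2-Aa was 2.05 ± 0.191 in control tumors and 2.23 ± 0.157 in swimming tumors, a difference of 0.12 on the log2 scale that lay between 0.07 and 0.15 when 1 tumor was omitted. H2-DMa to the sum of H2-DMb1 and H2-DMb2 was 2.25 ± 1.09 and 1.55 ± 0.217, and the highest ratio was 4.32 in control 5. On the log2 scale that difference was -0.43, and -0.22 without control 5. H2-DMb1 to H2-DMb2 was 0.777 ± 0.325 in control tumors and 0.948 ± 0.149 in swimming tumors, with control 5 (0.291) and control 1 (0.488) lowest, and its difference of 0.41 on the log2 scale was 0.16 without control 5.

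With the group means removed, so that the difference between the groups played no part, the 36 pairs of members other than H2-Oa had Pearson correlations between 0.75 and 0.998 over the 12 tumors, with a median of 0.92. H2-Aa and H2-Eb1 were the closest pair (0.998), and H2-DMb1 and Ciita the least close (0.75). The 9 pairs that include H2-Oa lay between 0.20 and 0.51. These correlations are a description. All members are read from the same libraries, and 8 of the 10 lie on chromosome 17.

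Ciita was set against the 4 most abundant of its protein-coding targets, and H2-Ab1 against the scores of 4 gene lists, which made 8 relations over 12 tumors on log2(FPKM + 1). To score a list, each gene's log2 value was set relative to that gene's average over all tumors, and the genes were then averaged. Ciita and H2-Ab1 had a Pearson correlation of 0.92 (permutation p = 4e-05, adjusted p = 0.00032) and a Spearman rho of 0.98 (permutation p = 1e-05, the smallest that 100000 permutations can give). Both genes are members, so these p-values include the group difference by which the members were chosen. With group means removed the Pearson correlation was 0.87 (p = 3e-05 by permutation within groups, adjusted p = 0.000213). Within control tumors the correlation was 0.87 and within swimming tumors 0.99. It was 0.96 without control 5 and swimming 5, the tumors farthest from the median of Ciita (permutation p = 1e-05). For H2-Aa, H2-Eb1 and Cd74 the correlation with Ciita was 0.89, 0.88 and 0.88 (adjusted permutation p = 0.0004, 0.00042 and 0.00042). Their Spearman rho was 0.97, 0.98 and 0.95 (permutation p = 1e-05, 1e-05 and 2e-05). These values over all tumors include the group difference too, and with group means removed the Pearson correlation was 0.83, 0.82 and 0.81. Within the groups it was 0.81 or higher for each of them, and without control 5 and swimming 5 it was 0.92, 0.92 and 0.90.

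Scores of antigen-presenting cells and of interferon gamma were less close to H2-Ab1 than Ciita was. With the list of genes for conventional dendritic cells (such as Flt3, Zbtb46 and Xcr1) the correlation was 0.76 (permutation p = 0.00287, adjusted p = 0.00383; rho = 0.74, permutation p = 0.00777). It was 0.62 within control tumors and 0.86 within swimming tumors, and 0.75 without control 1 and swimming 5 (permutation p = 0.0119). With the list of interferon gamma input (Ifng, its receptor and kinase genes, Irf1, Irf2 and Socs1 among others) it was 0.77 (permutation p = 0.00278, adjusted p = 0.00383; rho = 0.85, permutation p = 0.00085). In this list Ifng, Irf1, Socs1 and Irf2 differed by 0.55, 0.33, 0.25 and 0.15 between the groups on the log2 scale, and the receptor and kinase genes by 0.09 or less. Which genes of the list carried the correlation was not tested. The relation of H2-Ab1 with this list was uneven, at 0.24 within control tumors and 0.98 within swimming tumors, and it was 0.62 without swimming 5 and swimming 6 (permutation p = 0.047). With the macrophage list the correlation was 0.27 (permutation p = 0.39; rho = 0.29, permutation p = 0.356; adjusted p = 0.39), and 0.08 without control 3 and swimming 5 (permutation p = 0.819). Within control tumors it was 0.03 and within swimming tumors 0.76. With the B cell list it was 0.37 (permutation p = 0.229, adjusted p = 0.262; rho = 0.41, permutation p = 0.193), 0.52 and 0.30 within the groups, and 0.23 without control 1 and swimming 5 (permutation p = 0.527). H2-Ab1 is a member, so these p-values over all tumors also include the group difference by which the members were chosen. With group means removed the correlation was 0.72 for dendritic cells and 0.64 for interferon gamma input (p = 0.0214 and 0.0272 by permutation within groups). For macrophages and B cells it was 0.31 and 0.45 (p = 0.358 and 0.216 by the same permutation). The 6 relations with an adjusted p below 0.05 still had one with group means removed, between 0.000213 and 0.0363 in the permutation test.

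**Figure D4:**
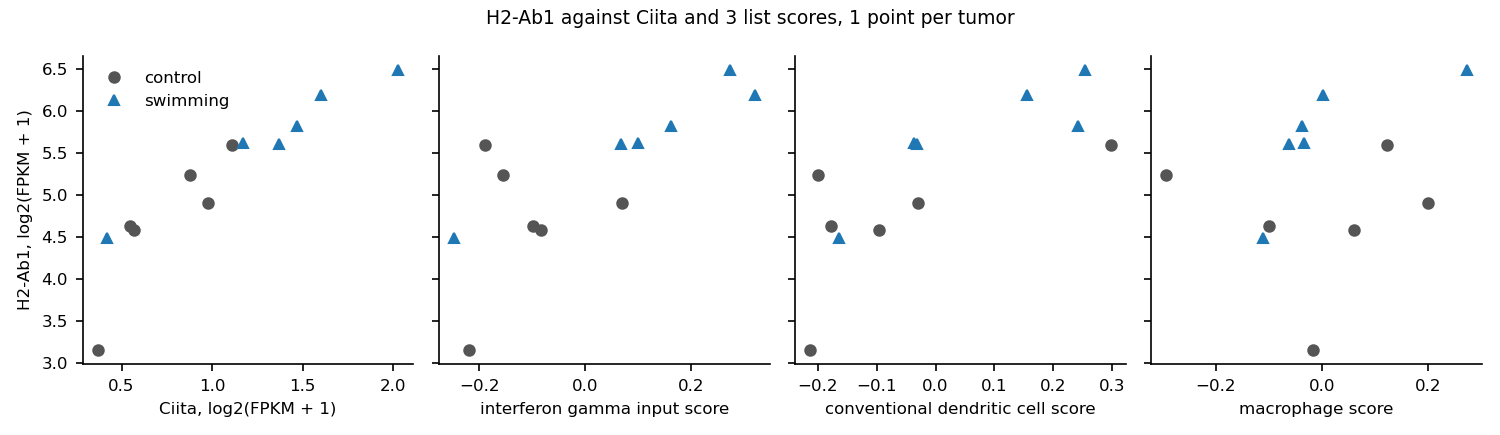
H2-Ab1 as log2(FPKM + 1) (y axis) against Ciita as log2(FPKM + 1) and against the scores of 3 gene lists (x axes), 1 point per tumor, control tumors as circles and swimming tumors as triangles. H2-Ab1 goes up with Ciita in both groups (0.87 and 0.99). Its correlation with the macrophage score is 0.27 over all tumors, 0.03 within control tumors and 0.76 within swimming tumors.

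By correlation with the mean of H2-Aa, H2-Ab1, H2-Eb1 and Cd74 over 12 tumors with group means removed, the most similar of 12780 other genes averaging at least 1 FPKM were Lck, Gbp8, Gimap8, Elf4, Ms4a4b and Il2rb, with values between 0.92 and 0.94. Lck is the kinase of the CD4 and CD8 coreceptors, and Il2rb is a chain of the interleukin-2 receptor. Gbp8 belongs to the guanylate-binding proteins. Elf4 was similar in level in both groups (10.5 and 10.9 FPKM on average). Of further genes looked up in this order, Psmb8 came at rank 28, Tapbp at 29, Nlrc5 at 135, Ctss at 368, Ifi30 at 384, Adgre1 at 955 and Irf1 at 1218. C1qa, Csf1r, Itgax and Rfx5 came at 2279, 3109, 6040 and 8599.

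The other genes of the pathway were grouped by role into 8 lists with 51 genes in the tables, of which 50 were tested (H2-Eb2, at most 0.131 FPKM, was not). In limma's test 9 were higher and 3 lower in swimming tumors with an unadjusted p below 0.05, and 0 had an adjusted p below 0.05. Among all genes 3.11% were higher and 2.46% lower at that unadjusted p. Without swimming 1, 19 of them were higher, and without control 5, swimming 3, swimming 4, swimming 5 or swimming 6, 6 were. Among the genes named here, Ifng, Cd40, Lag3, Psmb8, Psmb10, Ctsl and Cd63 stayed at an unadjusted p below 0.05 under every alternative in which they were tested, and Tap2, Tapbp, Psmb9 and Ctsd did not. The adjusted p of each of the 12 in limma's test was 0.889.

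Upstream of Ciita, Ifng, the cytokine itself, was between 0.125 and 0.584 FPKM in control tumors (median 0.398) and between 0.334 and 1.83 FPKM in swimming tumors (median 0.948). Swimming 1 was below the control median and the other 5 swimming tumors were above every control. The difference was 0.55 on the log2 scale (standard error 0.17, two-sided exact permutation p = 0.0173). The receptor genes Ifngr1 and Ifngr2 and the kinases Jak1 and Jak2 differed by 0.09 or less on the log2 scale in either direction and had an unadjusted p above 0.05. For Irf1, a transcription factor that acts on Ciita, limma gave a difference of 0.33 with a standard error of 0.21 (adjusted p = 0.899).

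The factors that hold Ciita at the promoter were compared in the same fit. Of the 7 genes Rfx5, Rfxap, Rfxank, Creb1, Nfya, Nfyb and Nfyc, 0 had an unadjusted p below 0.05. Rfxap, a subunit of the complex on the X box, had the smallest p of the list, with 9.83 ± 2.63 FPKM (SD, n = 6) in control tumors and 11.8 ± 2.73 FPKM (SD, n = 6) in swimming tumors (difference 0.25 on the log2 scale, adjusted p = 0.914 in limma's test). Rfx5, its DNA-binding subunit, differed by 0.04 on the log2 scale (standard error 0.12).

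**Figure D5:**
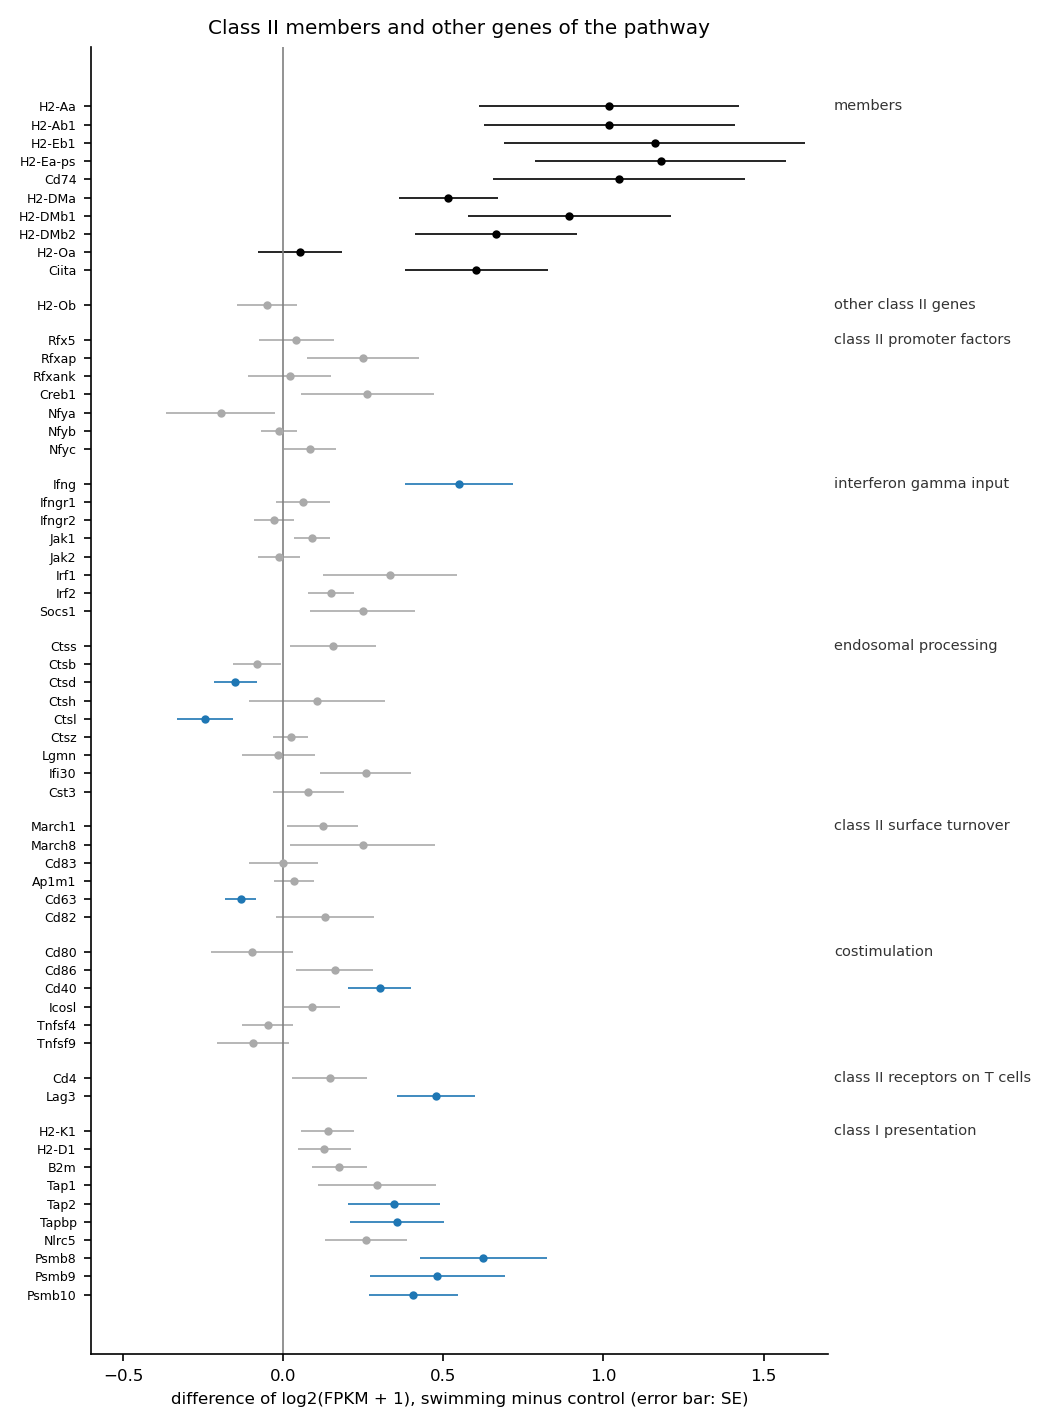
Difference of mean log2(FPKM + 1), swimming minus control (x axis), with its standard error, for the 10 members (black) and for the tested genes of the 8 pathway lists that are reported here, in blue where limma gave an unadjusted p below 0.05 and in grey elsewhere. The members other than H2-Oa lie between 0.51 and 1.18, and the pathway genes drawn between -0.24 and 0.62.

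In the endosome, Ctsl and Ctsd were lower and 0 of the 9 processing genes were higher at an unadjusted p below 0.05. Ctsl, a cathepsin that degrades the invariant chain in the thymic epithelium, was between 165 and 205 FPKM in control tumors (median 186) and between 127 and 183 FPKM in swimming tumors (median 153). All 6 swimming tumors were below the control median, and the difference was -0.24 on the log2 scale (standard error 0.09, two-sided exact permutation p = 0.0303). Ctsd was 223 ± 16.8 FPKM and 201 ± 18.3 FPKM (SD, n = 6 each, two-sided exact permutation p = 0.0519). Ctss, the cathepsin that does this in dendritic cells, macrophages and B cells, was 187 ± 30.7 FPKM in control tumors and 209 ± 38.9 FPKM in swimming tumors, a difference of 0.16 on the log2 scale (standard error 0.13). Among 6 genes of surface turnover, Cd63, a tetraspanin of late endosomes, was between 143 and 169 FPKM in control tumors (median 157) and between 131 and 147 FPKM in swimming tumors (median 145), with all swimming tumors below the control median (difference -0.13, two-sided exact permutation p = 0.00866). March1, the ligase that removes class II from the surface, was 1.12 ± 0.236 and 1.32 ± 0.406 FPKM.

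On the side of the T cell, Lag3, an inhibitory receptor for class II, was between 0.755 and 1.42 FPKM in control tumors (median 1.27) and between 1.38 and 2.48 FPKM in swimming tumors (median 1.97). All 6 swimming tumors were above the control median, and swimming 1 alone was inside the range of the controls. The difference was 0.48 on the log2 scale (standard error 0.12, two-sided exact permutation p = 0.00866). Cd4, the coreceptor, was between 0.203 and 0.870 FPKM in control tumors (median 0.293) and between 0.327 and 0.843 FPKM in swimming tumors (median 0.448), with control 1 highest (two-sided exact permutation p = 0.31). Of 6 costimulatory genes Cd40 was higher at an unadjusted p below 0.05, with 0.538 ± 0.127 FPKM in control tumors and 0.906 ± 0.271 FPKM in swimming tumors (SD, n = 6 each, difference 0.30, two-sided exact permutation p = 0.0173), and Cd86 and Cd80 differed by 0.16 and -0.10 on the log2 scale. In class I presentation the difference was above 0 in all 10 genes with a median of 0.32, and 5 of them (Psmb8, Psmb9, Psmb10, Tap2 and Tapbp) were at an unadjusted p below 0.05. Psmb8, a subunit of the immunoproteasome, differed most of these, from 38.0 ± 7.44 FPKM to 60.6 ± 17.9 FPKM (SD, n = 6 each, difference 0.62, two-sided exact permutation p = 0.0238). For Psmb10, Tap2, Tapbp and Psmb9 the two-sided exact permutation p was 0.0346, 0.0433, 0.0584 and 0.0758. Whether class II genes differed more than class I genes was not tested.

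Markers of antigen-presenting cells, T cells and other cell types were compared in the same fit. Of the 12 macrophage markers 0 were at an unadjusted p below 0.05, their median difference was 0.05 on the log2 scale, and their summed level was 1507 to 2110 FPKM in control tumors and 1571 to 2041 FPKM in swimming tumors. Of the 12 dendritic cell markers 2 were higher at that p, with a median difference of 0.16 and a summed level of 63.9 to 87.2 FPKM and 62.0 to 88.2 FPKM, most of it from Fscn1. Xcr1, which marks cross-presenting dendritic cells, was between 0.182 and 0.265 FPKM in control tumors and between 0.295 and 0.996 FPKM in swimming tumors, so that its groups did not overlap (two-sided exact permutation p = 0.00216, the smallest possible; adjusted p = 0.889 in limma's test), which 0.147% of all genes did not. Flt3 was the other, at 0.187 ± 0.122 and 0.333 ± 0.121 FPKM. Clec9a, which also marks cross-presenting dendritic cells, averaged 0.364 and 0.352 FPKM, and Zbtb46 and Fscn1 differed by -0.02 and -0.11 on the log2 scale. Of the 8 T cell markers 7 were higher at an unadjusted p below 0.05, with a median difference of 0.50 and a summed level of 3.97 to 10.6 FPKM in control tumors and 7.51 to 20.04 FPKM in swimming tumors. Of the plasmacytoid dendritic cell, B cell, fibroblast, endothelial, skeletal muscle, adipocyte and colon epithelium markers that were tested, 0 were at an unadjusted p below 0.05. The part of any of these cells in the class II values was not tested.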

How the data were processed

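RNA from 12 CT-26 tumors, 6 control and 6 swimming, was depleted of ribosomal RNA and sequenced by a service company for the authors. Reads were mapped with HISAT2 2.0.5 and quantified with StringTie 1.3.3, and of its output the FPKM per gene and tumor that the authors deposited were used. The methods name hg38, the submitters' processing notes name hg38 and GRCm38, and the deposited rows are mouse Ensembl identifiers, of which 30542 of 30630 were given a GENCODE M21 symbol. Groups and numbers came from sample titles, and nothing was pooled. The methods describe an injection into the right flank of each mouse, and the labels do not name the mouse of a tumor. The p-values measure the spread between these tumors.

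From these, log2(FPKM + 1) was fitted in limma 3.58.1 (R 4.3.3) with group as the only term and eBayes moderation that followed the mean level, with Benjamini-Hochberg adjustment over 19018 genes that reached 0.1 FPKM in 6 or more tumors. Single genes were compared by exact permutation over every division into 6 and 6 (smallest p 0.00216), and correlations by 100000 permutations with adjustment over 8 relations. Python 3.11.15, pandas 2.3.3, scipy 1.17.1 and matplotlib 3.10.9 were used, and the fit was tested on simulated data. Read numbers cannot be had from FPKM, so depth is known only relative to control 1 and intervals for counting error are not given. The members and the gene lists were chosen with earlier results of these data known. Named genes were the 10 members, the genes of each pathway list at an unadjusted p below 0.05 or with the smallest p, the 6 genes most alike, and marker genes that were lowest or most abundant. Other genes named for their role (Rfx5, Irf1, the receptor and kinase genes, Ctss, March1, Cd86, Cd80), the genes whose rank of likeness was looked up and the dendritic cell genes Xcr1, Flt3, Clec9a and Zbtb46 were chosen after their values were seen. Alternatives were other pseudocounts, filters and scalings, eBayes without trend, a block for the replicate number, and omitting 1 tumor at a time. Values of 2 listed genes are not reported here, though counts and scores of their lists include them.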

Additional observations from a re-analysis of the deposited data

Results flagged for a closer look

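Dixon's ratio was used to find single tumors that lay apart, in 44 groups of 6 values, those of the 10 members and of the 12 pathway genes at an unadjusted p below 0.05. Such a tumor was found in 5 groups, where chance gives about 2.2. H2-Oa was 0.844 FPKM in control 1, against 0 to 0.262 FPKM in the other control tumors. In control 5, Tap2 was 19.0 FPKM (others 24.7 to 27.9) and Tapbp was 56.4 FPKM (others 76.5 to 84.0), in the tumor that also had the lowest level of 9 of the 10 members among the controls. Ctsd was 237 FPKM in swimming 3 (others of its group 190 to 205), and Cd63 was 131 FPKM in swimming 5 (others 142 to 147).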

How the results depend on the processing

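All 10 members and all 12 pathway genes at an unadjusted p below 0.05 kept their direction under every alternative run. With a pseudocount of 0.1, 83 genes were higher and 55 lower past a fold of 2 at an unadjusted p below 0.05, and with 0.01, 132 and 97, against 13 and 7 with 1. For H2-Oa the difference was 0.47 and 1.19 on the log2 scale with these pseudocounts. A filter of 1 FPKM left 12737 genes, of which 391 were higher at an unadjusted p below 0.05. When 1 tumor was omitted, genes past the fold of 2 numbered 3 (without control 5) to 36 (without swimming 1) higher and 5 to 11 lower, genes that limma gave an adjusted p below 0.05 numbered 0 to 3 (3 without control 4, 2 without swimming 1), members at an unadjusted p below 0.05 6 to 10, and pathway genes higher 6 to 19. The median difference of the members was 0.65 without control 5 and 1.15 without swimming 1. H2-Oa to H2-DMa differed by -0.44 to 0.56 on the log2 scale. Control 4, where H2-Oa was listed at 0, has no log2 ratio and was not in that comparison. The sign of 3 further ratios near 0 also turned (H2-Ab1 to H2-Aa, H2-Ea-ps to H2-Eb1, Cd74 to H2-Aa).

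The replicate numbers did not pair the tumors: deviations of same-numbered tumors correlated between -0.32 and 0.0059, 0 of 6 pairs were over 0.1, and 0 of 12 tumors correlated best with their own number. With the number as a block, 8 genes were higher past the fold of 2, and 3 members (H2-Ea-ps, H2-DMa and H2-DMb1) were at an unadjusted p below 0.05. The cause of these shifts was not tested. Relative depth was lowest in control 2, at 0.694, and its part in values near 0, such as those of H2-Oa, was not tested.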
